A study of Homo sapiens with 6 samples.

Results

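In cells overexpressing SNRPD2, listed peaks whose summit lay in a long noncoding RNA (lncRNA) gene and in no gene of another kind numbered 11661. They were part of 206853 peaks of at most 1000 bp, and of 256139 peaks in all, on the nuclear chromosomes. A peak was a member if it was at most 1000 bp wide and its summit fell within the span of an annotated RefSeq lncRNA gene (build GRCh38.p14) and outside every gene of another biotype. Position and width alone chose the members; reads, folds and p-values played no part. The peaks came from RNA immunoprecipitation followed by sequencing (RIP-seq), which recovers the RNA held by a protein. The protein studied was SmD2, encoded by SNRPD2, and the cells were HEK293T, an established cell line of human embryonic kidney origin. The study asked how SmD2 relates to pseudouridine, the modified base that the enzyme PUS7 installs, and to splicing. The labels give 3 samples of genotype SNRPD2OE, from cells overexpressing SNRPD2, and 3 of genotype Ctrl. A peak list was analysed for each SNRPD2OE sample, called replicate 1, 2 and 3 here, and the Ctrl samples were not analysed here. The construct, the antibody and whether the replicates were separate cultures are not stated in the labels, so the spread between replicates may be technical. Binding to SmD2 was not tested here for any listed peak.

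Long noncoding RNAs are transcripts with no established protein product. Most are made by RNA polymerase II and are capped, spliced and polyadenylated in the way of mRNA precursors, so their introns are removed by the same small nuclear ribonucleoproteins whose Sm ring contains SmD2. Some carry functional RNAs in their introns, such as the small nucleolar RNA host genes (SNHG), whose excised introns release snoRNAs that guide the modification of other RNAs. Others start head to head with a protein-coding gene (divergent transcripts, -DT) or run on the opposite strand of a gene (antisense, -AS).

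Several recurrent members lay where an lncRNA gene starts beside or opposite another gene, and the windows of 300 bases around such starts (250 before and 50 after, RefSeq GRCh38.p14) show what the peaks covered. Counting lncRNA peaks of at least 3 reads that overlapped a window by at least 20 bp, 8 windows of the table were reached in at least 2 lists, and 4 are printed, 5′ to 3′ on the strand of the gene named. Capitals mark bases covered by such peaks in at least 2 lists.
LOC124904048 start, chr17:68101447-68101746, minus strand: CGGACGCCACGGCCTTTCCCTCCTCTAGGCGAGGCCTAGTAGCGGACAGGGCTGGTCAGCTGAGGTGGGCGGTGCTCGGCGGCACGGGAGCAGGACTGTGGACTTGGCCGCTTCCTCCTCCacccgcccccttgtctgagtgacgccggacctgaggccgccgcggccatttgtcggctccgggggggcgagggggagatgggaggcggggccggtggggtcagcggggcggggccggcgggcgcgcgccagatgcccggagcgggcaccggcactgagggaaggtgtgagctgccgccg
FAM242C start, chr12:54126346-54126645, minus strand: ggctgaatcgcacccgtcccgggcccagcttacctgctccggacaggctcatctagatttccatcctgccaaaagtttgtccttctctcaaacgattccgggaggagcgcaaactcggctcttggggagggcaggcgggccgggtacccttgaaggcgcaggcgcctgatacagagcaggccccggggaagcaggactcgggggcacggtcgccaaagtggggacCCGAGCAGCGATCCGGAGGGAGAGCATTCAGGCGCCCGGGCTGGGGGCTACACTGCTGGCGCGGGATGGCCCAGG
DPH5 start, chr1:101025735-101026034, minus strand: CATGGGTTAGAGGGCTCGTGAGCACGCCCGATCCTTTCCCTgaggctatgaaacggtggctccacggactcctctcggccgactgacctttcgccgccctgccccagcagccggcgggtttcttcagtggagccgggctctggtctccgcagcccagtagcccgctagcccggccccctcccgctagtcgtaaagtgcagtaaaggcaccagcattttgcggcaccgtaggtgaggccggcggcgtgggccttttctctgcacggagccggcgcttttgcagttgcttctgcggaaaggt
LOC124903191 start, chr13:94549492-94549791, plus strand: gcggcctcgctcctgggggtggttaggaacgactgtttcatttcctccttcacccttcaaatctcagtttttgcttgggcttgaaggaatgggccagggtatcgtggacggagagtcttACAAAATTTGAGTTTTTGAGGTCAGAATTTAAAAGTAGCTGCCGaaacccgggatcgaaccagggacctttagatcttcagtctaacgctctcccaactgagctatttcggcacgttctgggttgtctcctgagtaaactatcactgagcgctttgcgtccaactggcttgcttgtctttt
The LOC124904048 and FAM242C windows are shown because peaks of all 3 lists reached them. On the first, the peaks belonged to LINC00674, an intergenic lncRNA on the other strand, with 4, 3 and 6 reads at the summit in replicates 1, 2 and 3, and 121 bases were covered in at least 2 lists. At the second, 75 bases were covered, and the peaks had their summits where FAM242C and LINC02381 overlap on opposite strands, with 9, 8 and 6 reads. Of these summits only that of replicate 2 lay inside the printed window, and those of replicates 1 and 3 lay past its 3′ end. A further peak of replicate 3 lay in LINC02381 alone. The strand of the reads is not given, so these reads cannot be assigned to either gene of such a pair. The DPH5 window is shown for DPH5-DT, the divergent transcript of the gene for a diphthamide synthesis enzyme, which had 12 reads there in replicate 2 and 14 in replicate 3. The LOC124903191 window is shown because its peaks, of 6 and 4 reads in replicates 1 and 2, had their summits 58 bp and 3 bp from the phenylalanine tRNA gene TRF-GAA1-5.

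These windows were searched on both strands for TGTAA and TGTAG, pentamers of the kind modified by PUS7, and for ATTTTTG, the DNA form of an Sm site. The DPH5 and LOC124904048 windows held none of them, the FAM242C window held 1 TGTAG and the LOC124903191 window 1 TGTAA. Of 35116 windows of the same length in the table, 45.1% held TGTAA or TGTAG and 4.12% held ATTTTTG, and among the 12917 windows of lncRNA genes the shares were 54.7% and 6.02%. G and C made up 64.7% of the DPH5 window, 66.3% of the FAM242C window, 74.7% of the LOC124904048 window and 49% of the LOC124903191 window, against medians of 50% for lncRNA windows and 58.7% for all windows. A match describes the letters in the window only, and genomic sequence at the other summits was not used here.

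The 3 lists stood apart from each other in ways that bear on every count. The number of reads at each summit was solved from the deposited fold and −log10 p, both of which the peak caller MACS2 derives from the same pileup. In replicate 2 a single read stood under 9893 (89.6%) of the lncRNA peaks, against 0 in replicate 1 and 43 (32.1%) in replicate 3. Replicate 3 had 4530 further peaks in lncRNA genes only that were wider than 1000 bp, with a median width of 33106.5 bp and 1 read at the summit in 81.2% of them, while replicates 1 and 2 had none. The widest members measured 421 bp, 484 bp and 991 bp in replicates 1, 2 and 3, with 6, 1 and 1 reads, and the narrowest peak outside the limit, in replicate 3, was 1003 bp wide with 1 read. Sequencing depth is unknown from peak lists. Recovered reads may include PCR duplicates, and intervals given here cover counting error only.

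Peaks in lncRNA genes only were a small and unequal share of the lists. They numbered 486, 11041 and 134 in replicates 1, 2 and 3, which was 1.61%, 6.86% and 0.847% of the peaks of at most 1000 bp (mean 3.11% ± 3.27, SD, n = 3). Peaks in protein-coding genes only made up 85.3%, 66.5% and 87.2% (79.7% ± 11.4). The share of lncRNA peaks was highest in replicate 2, and without that replicate its mean was 1.23%.

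The lists differed most in the peaks with few reads. Among peaks with at least 10 reads, those in lncRNA genes only were 0.585%, 0.536% and 0.513% of each list (mean 0.545% ± 0.0369, SD, n = 3), and the 95% Wilson intervals of 0.427 to 0.802%, 0.400 to 0.716% and 0.353 to 0.746% overlapped. With 5 to 9 reads the share was 0.940%, 0.849% and 0.596%. With 3 to 4 reads it was 2.24%, 2.08% and 0.503%. With 2 reads it was 2.85%, 4.90% and 4.73%, and with 1 read it was 8.61% in replicate 2 and 4.97% in replicate 3. Replicate 1 listed no peak of 1 read in any kind of gene or between genes. In replicates 1 and 2 the lncRNA share was thus higher in every bin of fewer reads. In replicate 3 it was high at 1 and 2 reads, while the 3 bins from 3 reads upward lay between 0.503% and 0.596%. The lists lay closest together at 10 reads or more.

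**Figure D1:**
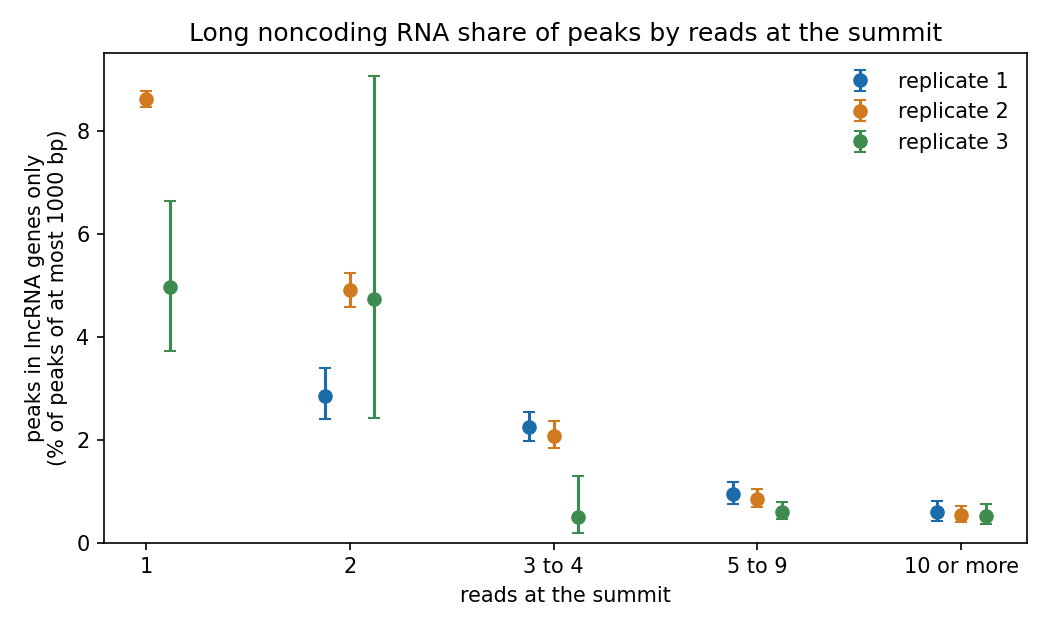
Share of peaks of at most 1000 bp that lay in lncRNA genes only (%, vertical axis) by reads at the summit (horizontal axis), with a point for each replicate and its 95% Wilson interval. With 10 or more reads the 3 replicates sit between 0.513% and 0.585%, while with 1 read replicate 2 reaches 8.61%.

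Peaks in lncRNA genes less often had 10 reads or more than those in protein-coding genes, with shares near those of peaks outside genes. Of the lncRNA peaks, 38 (7.82%), 45 (0.408%) and 27 (20.1%) had at least 10 reads in replicates 1, 2 and 3, against 22.5%, 6.95% and 31.5% of the peaks in protein-coding genes only. Peaks outside genes had 8.53%, 0.385% and 26.9%, and over all peaks of at most 1000 bp the share was 21.6%, 5.22% and 33.3%. The lncRNA share was lower than the protein-coding share in 3 of 3 lists, by a mean of −10.8 percentage points ± 4.08 (SD, n = 3). An exact paired permutation test over the lists, two-sided, gave p = 0.25, which is the smallest p that 3 pairs allow. Median reads at the summit were 3, 1 and 6 in lncRNA genes, against 5, 1 and 7 in protein-coding genes and 3, 1 and 6 outside genes. The highest in lncRNA genes were 58, 48 and 45. The lists hold no level of the RNAs in the cells, and the part of RNA abundance in the reads at a summit was not tested.

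The share of peaks that passed the caller's own correction differed from that in protein-coding genes by less than the spread between lists. A deposited q-value under 0.05 was attached to 21 (4.32%), 133 (1.20%) and 6 (4.48%) lncRNA peaks, against 4.43%, 4.38% and 3.61% of the peaks in protein-coding genes only and 4.81%, 3.62% and 5.43% of all peaks of at most 1000 bp. The difference was −0.808 percentage points ± 2.11 (SD, n = 3; exact paired permutation p = 0.75, two-sided). It was negative in replicates 1 and 2 and positive in replicate 3, and it was 0.378 without replicate 2. The fold of a peak is the authors' own value and is used below only to describe peaks within a list.

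Of 18303 annotated lncRNA genes, 428 (2.34%), 4871 (26.6%) and 127 (0.694%) held a member peak in replicates 1, 2 and 3. A peak was found in all 3 lists in 47 genes (0.257%), in 2 lists in 367 and in 1 list in 4551, of which 4463 were in replicate 2 alone. Replicate 2 held 350 of the genes of replicate 1 (81.8% of replicate 1, 7.19% of replicate 2) and 105 of those of replicate 3 (82.7% of replicate 3, 2.16% of replicate 2). Replicates 1 and 3 shared 53 (12.4% and 41.7%). A shared gene did not always mean a shared place. In 11 of the 47 genes the strongest summits of the 3 lists lay within 100 bp, and in 29 they were more than 1000 bp apart. In 9 of the 47 the strongest peak had at least 10 reads in every list, in 21 at least 5, and in 10 some list had only 1 read. Overlapping genes that share peaks are counted separately among the 47. Such pairs were FAM242C with LINC02381, DANT1 with DANT2, and DLEU1 with DLEU2.

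**Figure D2:**
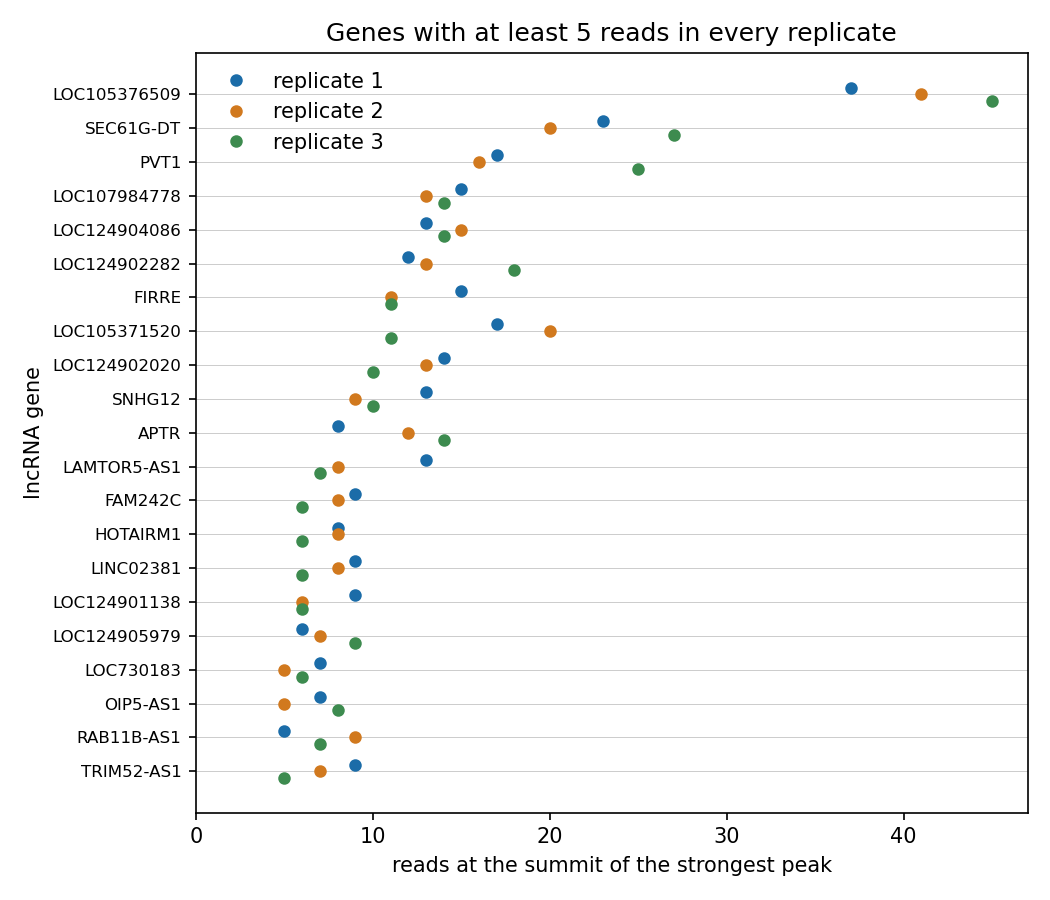
Reads at the summit of the strongest peak (horizontal axis) of the 21 lncRNA genes (vertical axis) that had at least 5 reads in each of the 3 replicates, with a point per replicate. LOC105376509 has the most, between 37 and 45 reads, and SEC61G-DT follows with 20 to 27. FAM242C and LINC02381 overlap and share peaks, but are drawn as separate genes.

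At single positions, 16 segments of at least 20 bp were covered by peaks of all 3 lists and lay in lncRNA genes only, out of 1796 such segments in all genes and between them (0.891%). They had a median length of 57 bp and fell in 15 genes or pairs of overlapping genes. In 12 segments every peak had its summit in lncRNA genes only, and in 6 the 3 summits lay within 50 bp. Coverage by a pair of lists is a weaker demand, and such segments in lncRNA genes numbered 157 without replicate 3, 57 without replicate 1 and 30 without replicate 2. The totals over all genes and between them were not counted for the pairs.

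The clearest of these by the authors' own values was in SEC61G-DT, the divergent transcript of SEC61G, which encodes a subunit of the channel that moves proteins into the endoplasmic reticulum. SEC61G-DT (gene 100996654, chr7:54759313-54804969, plus strand) had 23, 20 and 27 reads at the summit in replicates 1, 2 and 3, with deposited folds of 7.39, 7.48 and 7.05. The shared segment was 202 bp long, at chr7:54759716-54759917, near the annotated start of the gene, and the summits lay within 58 bp. It was the only gene whose peaks reached a −log10 q of at least 3 in all 3 lists, with 5.24, 8.74 and 4.78.

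LOC107984778 (chr15:91403173-91469705, minus strand) had as few as 13 to 15 reads but high folds. Its reads were 15, 13 and 14, and its folds were 9.27, 10.3 and 3.94 in replicates 1, 2 and 3. The nearest gene of another biotype lay more than 100 kb away. Its −log10 q was 8.73 and 10.7 in replicates 1 and 2 but 0.129 in replicate 3, so it passed the caller's correction in 2 of the lists.

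Ranked by the lowest reads over the 3 lists, LOC105376509 came first (chr11:736524-746962, plus strand), with 37, 41 and 45 reads and summits within 44 bp. Its folds were only 2.11, 1.85 and 4.14, since the caller's background there was 16.7 and 21.7 reads in replicates 1 and 2. Reads and fold therefore ranked the recurrent genes differently. The −log10 q of LOC105376509 was 0, 0.473 and 1.03, so it reached a q-value under 0.05 in no list.

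PVT1, an lncRNA gene beside MYC on chromosome 8 that spans 306733 bp, had 2 shared places. At the first it had 17, 16 and 25 reads with summits 2 bp apart over the 3 lists, and at the second 8, 5 and 9 reads with summits within 11 bp. The neighbouring LOC124902020 had 14, 13 and 10 reads, with summits 1 bp apart. In PVT1, the folds were 2.24, 1.86 and 3.67 at the first place and 5.58, 5.08 and 3.16 at the second. The place with fewer reads thus had the higher fold in replicates 1 and 2. The −log10 q was 0 in all 3 lists at the first place, and 3.51, 2.55 and 0.329 at the second. LOC124902020 had 1.09, 0 and 0, so it reached a q-value under 0.05 in no list.

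Other segments covered in all 3 lists lay in genes known only by their RefSeq identifier. LOC124904086 had 13, 15 and 14 reads with summits within 13 bp, and LOC105371520 had 17, 20 and 11 with summits within 28 bp. LOC124902282 had 12, 13 and 18 reads over a segment of 132 bp, LOC124905979 had 6, 7 and 9, and LOC102723878 had 4, 7 and 8. All 5 had their summits in lncRNA genes only in every list. A q-value under 0.05 was reached by LOC124902282 in replicate 2 and by LOC124905979 in replicates 1 and 3. LOC124904086, LOC105371520 and LOC102723878 reached it in no list.

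At 4 segments a peak in some list had its summit in a gene of another biotype. The segment in LOC105370449 had 58, 53 and 27 reads, and there the summit of replicate 1 stood 1 bp from RNU1-27P, a pseudogene of the U1 snRNA, while that of replicate 2 also lay in a gene of another biotype. The segment in LINC01783 had 23, 21 and 14 reads, and the summit of replicate 1 also lay in a gene of another biotype. The summits of replicates 2 and 3 lay 113 bp and 21 bp from the glutamate tRNA gene TRE-TTC4-1. LOC112268274 (26, 27 and 11 reads) and LINC00324 (10, 9 and 7) were the remaining ones. The replicate 3 summit in LOC112268274 lay 132 bp from the snRNA gene LOC124904613. At these segments a q-value under 0.05 was reached in replicates 1 and 2 by LOC105370449 and LOC112268274. LINC01783 reached it in replicate 2 and LINC00324 in no list. Over all members, 12 (2.47%), 47 (0.426%) and 9 (6.72%) summits lay within 100 bp of a gene of another biotype, of which 7, 10 and 4 were beside small RNA genes. The part of such neighbours in the counts was not tested beyond leaving them out, which left 44 of the genes in all 3 lists, an alternative chosen after the data were seen.

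Classes of lncRNA genes differed in how many of their genes held a peak, and the order changed with the list. SNHG genes had a peak in 27.6%, 34.5% and 6.90% of their 29 members in replicates 1, 2 and 3 (mean 23.0% ± 14.4, SD, n = 3), which was the highest share of any class in replicates 1 and 3. Divergent transcripts (592 genes) had 7.26%, 53.9% and 2.196%, and microRNA hosts (87 genes) 5.75%, 50.6% and 5.75%. LINC genes (2309) had 3.59%, 37.5% and 0.780%, and antisense genes (2070) had 3.86%, 25.5% and 0.966%. Genes with only a LOC identifier, the largest class with 12385, had 1.31%, 23.0% and 0.396%. No test between classes was made, and classes also differ in gene length and number. A summit that also lay in a gene of another biotype was outside the rule, yet every annotated gene of a class was counted in its total. Classes whose genes overlap other genes, such as antisense genes, thus had less room for members. That room was not measured, so the order of the classes is a description under this rule only.

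**Figure D3:**
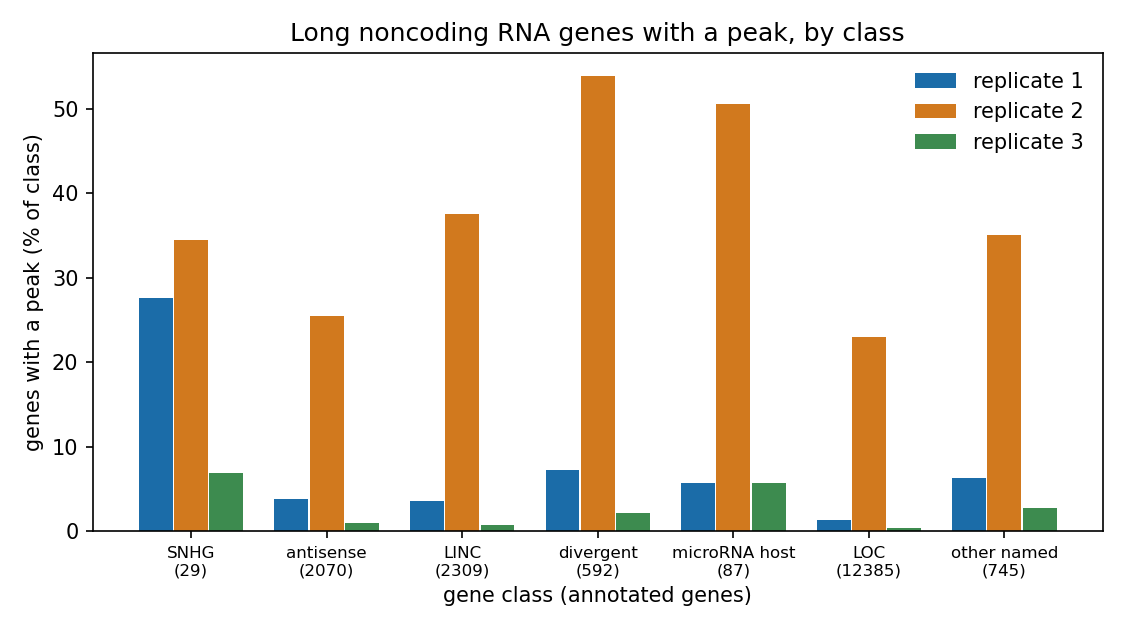
Share of the annotated lncRNA genes of a class that held a peak (%, vertical axis), with a bar for each replicate and the number of genes of the class in parentheses. SNHG genes lead in replicates 1 (27.6%) and 3 (6.90%), and divergent transcripts lead in replicate 2 (53.9%).

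SNHG genes carried few peaks, but many of these were tall. The class was read from the symbol, and 24 of its 29 genes held a snoRNA gene in their span. They held 9, 24 and 2 peaks, of which 6, 8 and 2 had at least 10 reads, while over all lncRNA peaks 38 of 486, 45 of 11041 and 27 of 134 did. SNHG12 was the only SNHG gene with a peak in all 3 lists. It had 13, 9 and 10 reads, at the same place in replicates 1 and 2 (chr1:28581823 and chr1:28581826) but 3175 bp from there in replicate 3, where the summit lay 92 bp from SNORD99.

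SNHG19 had 15 reads in replicate 1 and 14 in replicate 3, 3 bp apart, and no peak in replicate 2. SNHG1 had 12 and 16 reads in replicates 1 and 2, 65 bp apart. SNHG16 had 9 and 25 in the same replicates but 2309 bp apart, and SNHG21 had 3 and 2, 1820 bp apart. Shared places within an SNHG gene were thus seen in pairs of lists, replicates 1 and 2 for SNHG12 and SNHG1 and replicates 1 and 3 for SNHG19.

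The other 9 SNHG genes with a peak had it in 1 list. SNHG29 had the most reads of any lncRNA peak of replicate 2, with 48, 47 and 43 at 3 places and folds between 1.47 and 1.74, the caller's background being 27.1 to 31.6 reads. SNHG15 had peaks of 38 and 15 reads in replicate 1, SNHG17 had 12 reads in replicate 1 and SNHG32 had 10 in replicate 2. SNHG33 had 4 reads in replicate 1 and SNHG30 had 4 in replicate 2. SNHG14, SNHG26 and SNHG31 were seen in replicate 2 with 1 read each.

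Within the SNHG genes, 2 of 9, 5 of 24 and 2 of 2 summits lay within 200 bp of a gene of another biotype, which was a snoRNA gene at 8 of these 9 summits. The share of all lncRNA summits within 200 bp was not counted. SNHG genes have a median length of 4950 bp, against 9038 bp over all lncRNA genes, and 24 of the 29 hold a snoRNA gene. Closeness to a snoRNA gene is thus partly given by the class, and no conclusion is drawn from it. A summit inside a snoRNA itself was outside the rule. Hosts not named SNHG, defined as the other lncRNA genes whose span holds a snoRNA gene, numbered 121, and 9 (7.44%), 62 (51.2%) and 4 (3.31%) of them had a peak, against 2.34%, 26.6% and 0.694% of all lncRNA genes. Of these hosts, GAS5, a growth-arrest transcript that hosts many snoRNAs, had 36 reads in both replicate 1 and replicate 2. Its summits lay 5 bp apart in a place 179 to 184 bp from SNORD81, and it had no peak in replicate 3. ZFAS1 had 21 and 16 reads in replicates 2 and 3, 15 bp apart. DANCR had 11 reads in replicate 1 and 1 in replicate 2. MEG8, from the imprinted cluster on chromosome 14, had 3, 3 and 17 reads at places up to 46251 bp apart, the last of them 15 bp from SNORD114-3.

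Antisense genes held 100, 1595 and 21 peaks, of which 5, 4 and 1 had at least 10 reads, while 7.82%, 0.408% and 20.1% of all lncRNA peaks did. LAMTOR5-AS1 (chr1:110407809-110416274, plus strand) had 13, 8 and 7 reads at summits within 27 bp, and RAB11B-AS1 had 5, 9 and 7 within 35 bp. OIP5-AS1, the RNA also called cyrano, had 7, 5 and 8 reads, but replicates 1 and 3 lay 11 bp apart while replicate 2 lay 16838 bp away. NGFR-AS1, named after its values were seen, had 31 and 26 reads in replicates 2 and 3 at summits 7 bp apart, and 3 reads elsewhere in replicate 1. The antisense genes therefore ranged from 1 shared place in all lists to sites shared by a pair of lists only.

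LINC genes held 106, 2120 and 22 peaks, of which 3, 3 and 2 had at least 10 reads, against the shares of all lncRNA peaks given for the antisense genes. LINC02381 shared a peak with FAM242C in each list and had another in replicate 3, also of 6 reads, outside FAM242C. LINC00674 had 4, 5 and 6 reads at its strongest peaks, and LINC00265 had 11, 3 and 7, with replicates 1 and 3 at summits 9 bp apart. The member with the highest fold and −log10 q of replicate 1 was in LINC01836, named after its values were seen, with 19 reads, a fold of 11.9 and a −log10 q of 17.8. In replicate 2 LINC01836 had 10 reads, 4 bp away, with a fold of 5.78, and no peak was listed in replicate 3.

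Divergent transcripts held 46, 997 and 13 peaks. Besides SEC61G-DT and DPH5-DT, AKAP1-DT was found in all 3 lists, with 2, 3 and 2 reads. In DPH5-DT the peak of replicate 1 had 4 reads and lay elsewhere, 49432 bp from the strongest summit of replicate 2 and 49480 bp from that of replicate 3. A peak of 38 reads in replicate 1 and 22 in replicate 2 (folds 7.93 and 6.20) lay within both EPCAM-DT and BCYRN1, the gene of the small brain cytoplasmic RNA BC200, which is nested in it. It was absent from replicate 3 and was named after its values were seen.

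Among other named genes, HOTAIRM1, a transcript of the HOXA cluster, had 8, 8 and 6 reads, with replicates 2 and 3 at summits 3 bp apart and replicate 1 elsewhere. FIRRE, a nuclear RNA that helps organise chromosomes, had 15, 11 and 11 reads, with replicates 1 and 2 at summits 11 bp apart and replicate 3 lying 9172 bp from the farther of them. APTR had 8, 12 and 14 reads, of which those of replicates 2 and 3 lay 83 bp apart. CHASERR, which lies beside CHD2, had 16 and 15 reads in replicates 1 and 2 at summits 7 bp apart, and MEG3 had 6 and 5, also 7 bp apart. JPX, which takes part in X inactivation, had 18 reads in replicate 1 and 5 in replicate 2, 2651 bp apart.

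A list of 58 well-known lncRNAs was followed as a whole. RefSeq gives 52 of them as lncRNA genes, 5 another biotype and 1 no match. A peak was found in 18 (34.6%), 29 (55.8%) and 12 (23.1%) of the 52, against 2.34%, 26.6% and 0.694% of all lncRNA genes. In all 3 lists were 8 genes, namely DLEU1, DLEU2, FIRRE, HOTAIRM1, MEG8, NUTM2A-AS1, OIP5-AS1 and PVT1. DLEU1 and DLEU2 overlap, and their strongest peaks in replicates 1 and 2 were the same peaks. A further 12 were in 2 lists, 11 in 1 list and 21 in none, and without replicate 3 the remaining lists shared 17. These counts are of member peaks only. Some of the 21 had listed summits that were too wide or also lay in a gene of another biotype. In replicates 1, 2 and 3, KCNQ1OT1 had 0, 24 and 6 such summits and TTN-AS1 had 1, 36 and 10, while others, such as MALAT1 and H19, had none. The list was chosen with earlier results of these data known, so its share is a description.

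The abundant nuclear RNA NEAT1, which builds paraspeckles, had 5 reads in replicate 1 and 1 in replicate 3, 2092 bp apart. No summit of any width was listed in MALAT1, a nuclear speckle RNA, NORAD, H19 or MIR17HG in any list. These 4 were named after their values were seen, and their absence holds for the listed peaks only.

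Genes with many peaks were long and were filled mostly by 1-read peaks of replicate 2. PVT1 had 6, 69 and 4 peaks in replicates 1, 2 and 3, and 61 of the 69 had 1 read. LINC01605 had 6, 50 and 0 peaks, with 41 of the 50 at 1 read, and DLEU1 had 1, 41 and 3, with 39 of the 41 at 1 read. MIR924HG, spanning 545072 bp, had 42 peaks in replicate 2, of which 41 had 1 read, and WARS2-AS1 had 37, of which 34 did.

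Gene length moved with the presence of a peak. The median length of lncRNA genes with a peak was 20411, 23255 and 16674 bp in replicates 1, 2 and 3, against 9038 bp over all lncRNA genes. Of the 4576 longest lncRNA genes 4.33%, 52.6% and 1.11% held a peak, against 1.22%, 10.1% and 0.503% of the 4576 shortest. For peaks with at least 10 reads the shares were 0.262%, 0.350% and 0.350% of the longest genes and 0.153%, 0.131% and 0.0656% of the shortest. The part of length in the class shares above was not tested.

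Along the gene, lncRNA peaks lay nearer to the annotated 5′ end than peaks in protein-coding genes did in each list. Summits in 1 gene of known strand numbered 327, 6938 and 86 in lncRNA genes. Of these, 24.8%, 9.84% and 40.7% lay within 1 kb of the 5′ end, against 10.1%, 5.52% and 14.5% in protein-coding genes, a mean difference of 15.1 percentage points ± 10.96 (SD, n = 3; exact paired permutation p = 0.25, two-sided, the smallest possible). Without replicate 3 the difference was 9.503 points. With no limit on width it was 6.26 points (exact paired permutation p = 0.5), so it no longer had 1 sign in all lists. The median length of the genes holding these summits was 21468, 44418 and 16891.5 bp for lncRNA genes and 57543, 89148 and 45971 bp for protein-coding genes, so a fixed 1 kb is a larger part of an lncRNA gene.

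Scaled to gene length, the first 10% of the gene held 25.4%, 15.1% and 33.7% of lncRNA summits, against 13.4%, 12.5% and 17.9% of protein-coding ones (mean difference 10.1 points ± 6.81, SD, n = 3; exact paired permutation p = 0.25). The last 10% held 10.4%, 11.98% and 11.6% of lncRNA summits, against 18.3%, 16.7% and 16.5% (difference −5.83 points ± 1.80; exact paired permutation p = 0.25). Both differences had the same sign in 3 of 3 lists. With at least 10 reads, 9 of 29, 14 of 35 and 7 of 19 lncRNA summits lay within 1 kb of the 5′ end (31.0%, 40% and 36.8%), against 16.5%, 17.5% and 22.8% of such summits in protein-coding genes. At that minimum the first 10% of the gene held 24.1%, 40% and 21.1% of lncRNA summits, against 18.5%, 19.2% and 24.9%, so it was lower in replicate 3. The last 10% held 17.2%, 17.1% and 15.8%, against 16.9%, 16.5% and 15.6%, so the lower share near the 3′ end was not seen among these 29, 35 and 19 summits.

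**Figure D4:**
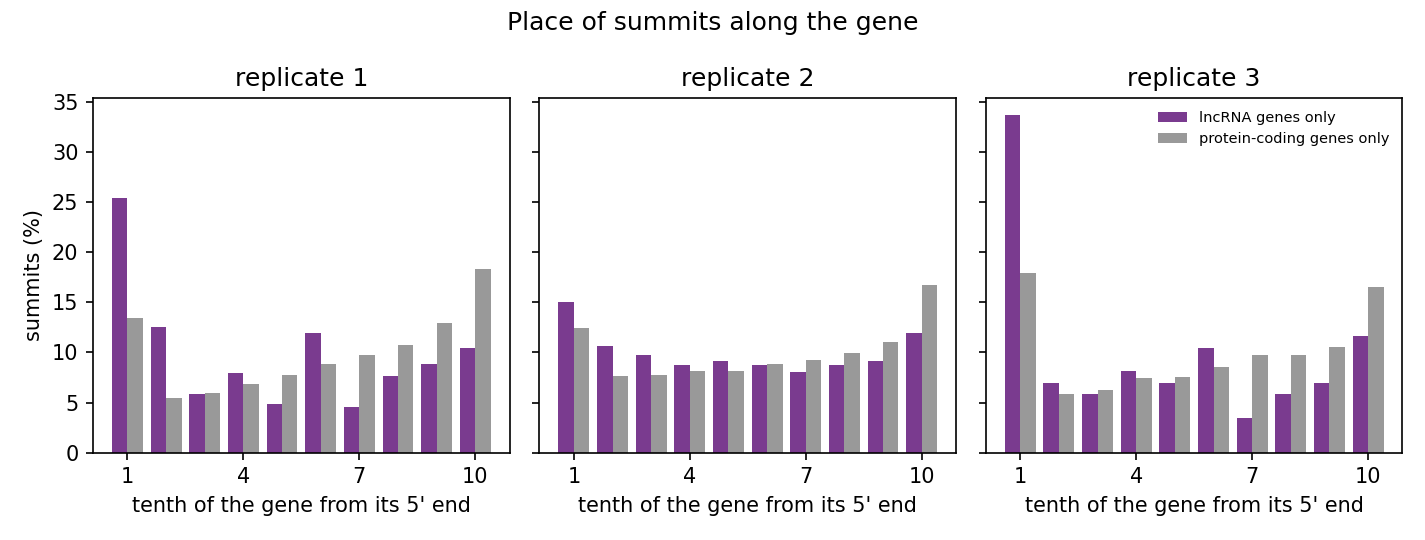
Share of summits (%, vertical axis) in each 10% of the gene from its annotated 5′ end (horizontal axis) for peaks in lncRNA genes only and in protein-coding genes only, with a panel for each replicate. In the first 10% the lncRNA bars reach 25.4%, 15.1% and 33.7%, above the protein-coding bars, and in the last 10% they are below them.

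How often a peak of one list was met by a peak of another (at least 1 bp) differed with the minimum of reads set on both lists. In replicate 1, 34.2% of lncRNA peaks were met in replicate 2 and 5.76% in replicate 3, against 34.9% and 14.4% of protein-coding peaks. For replicate 2, 1.52% of lncRNA peaks overlapped replicate 1 and 0.516% overlapped replicate 3, against 8.44% and 4.49% of protein-coding peaks. For replicate 3, the shares were 22.4% in replicate 1 and 41.8% in replicate 2, against 27.2% and 35.0%. Thus the lncRNA share was lower than the protein-coding share in 5 of 6 ordered pairs.

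With at least 10 reads required of the peaks in both lists, the lncRNA share was higher in all 6 pairs. In 1 of them it was higher over all peaks too. A peak could here be met only by a peak of at least 10 reads, so these shares have another target than those over all peaks. Of such lncRNA peaks of replicate 1, 50% and 26.3% overlapped a peak of at least 10 reads in replicates 2 and 3. The protein-coding shares were 38.7% and 24.8%. For replicate 2 the shares were 44.4% in replicate 1 and 28.9% in replicate 3, against 30.4% and 24.7%, and for replicate 3 they were 44.4% in replicate 1 and 59.3% in replicate 2, against 33.6% and 42.6%. These rest on 38, 45 and 27 lncRNA peaks, the pairs share lists, and the difference was not tested.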

How the data were processed

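RIP-seq of HEK293T cells comprised 3 SNRPD2OE and 3 Ctrl samples, grouped by genotype per the labels; the 3 SNRPD2OE peak lists were analysed and the Ctrl samples were not analysed here. The submitters' processing notes name MACS2 2.2.9.1, STAR 2.7.10b and cutadapt 4.2, and build GRCh38, per the labels. No source used here gives the caller's options or background library, the handling of duplicates or the strand, and the labels' extraction text describes rRNA-depleted total RNA rather than the immunoprecipitation. Peaks were listed per sample, not pooled.

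The deposited columns are a score, a fold (a ratio of scaled pileup plus 1 over background plus 1), −log10 p-values, −log10 q-values and, as other columns, starts, ends and summit offsets. Reads at a summit were solved from the deposited fold and −log10 p within 0.002, with 1 read worth 0.599, 1 and 0.254 of the caller's scaled units in replicates 1, 2 and 3. Only 1 peak, in replicate 3, was not solved.

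Gene spans and biotypes came from a RefSeq table of GRCh38.p14 with 59679 genes on nuclear chromosomes, 18303 of them lncRNA genes. Classes were read from symbols in the order SNHG, antisense (-AS or OT), LINC, divergent, intronic, microRNA host, LOC and other, and a peak in several lncRNA genes took the first. Strand was known for 11462 lncRNA genes, none on chromosome 8, and position was analysed only there. Strand was missing for the snoRNA genes, so hosts were defined by span alone and not by strand as planned. Genomic sequence was limited to windows at gene starts.

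Shares were compared over lists by exact paired permutation tests (sign flips). Alternatives changed the width limit, placement, read and q minima, list length, overlap rule, distances and replicates. Genes were named as the top 10 by lowest reads over the 3 lists, the top 3 of each class, members of the list of known lncRNAs in at least 2 lists, genes with a segment in all 3 lists, the 5 with most peaks and every SNHG gene with a peak. The members, lists and tests were chosen with earlier results of these data known. Recovery of reads, overlaps and tests were tested on simulated data. Python 3.11.15, numpy 2.4.6, pandas 2.3.3, scipy 1.17.1 and matplotlib 3.10.9 were used.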

Additional observations from a re-analysis of the deposited data

How the results depend on the processing

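Leaving out 1 replicate at a time, lncRNA genes with a peak in all remaining lists ranged from 53 to 350 (47 with 3 lists), shared segments from 30 to 157 (16), known lncRNAs from 9 to 17 (8), the lncRNA share of peaks from 1.23% to 4.24%, SNHG genes with a peak from 17.2% to 31.0%, mean overlap from 14.1% to 21.2%, the 5′ end difference from 9.503 to 20.5 points, the difference in peaks with at least 10 reads from −13.0 to −8.94 points and the difference in q-values from −1.64 to 0.378 points. That last difference was positive (0.378) without replicate 2 and also 0.185 at a −log10 q of at least 3. Genes in all 3 lists numbered 240 with no width limit, 9 with at least 10 reads, 17 with 15813 peaks per list, 1 at a −log10 q of at least 3 and, chosen after the data were seen, 11 with strongest summits within 100 bp. At a −log10 q of at least 3, 1 shared segment was left. Mean overlap was then 45.5% ± 44.2 (SD over ordered pairs of lists), and in replicate 3 it rested on the SEC61G-DT peak alone. It was 42.2% ± 12.6 with at least 10 reads and 17.7% ± 17.7 over all lncRNA peaks, each minimum being set on both lists. Under the other settings the lncRNA share ran between 0.545% and 5.21%, and the difference in peaks with at least 10 reads stayed negative, between −23.9 points (5 reads) and −2.90 points (20 reads). The mean 5′ end difference stayed positive, between 6.26 points (no width limit; exact paired permutation p = 0.5, so the lists no longer had 1 sign) and 22.0 points (2000 bp). Of 61 named genes, 19 kept their number of lists with at least 10 reads, 50 with no width limit and only 1 with a −log10 q minimum of 3. No paired analysis was possible because the Ctrl samples that share replicate numbers with the SNRPD2OE samples were not analysed here. Groups of 3 lists allow no exact p under 0.25.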
